A study of Mus musculus with 2 samples.

Results

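The 10 genes described here encode transcription factors that drive epithelial differentiation: the grainyhead-like genes Grhl1, Grhl2 and Grhl3, the epithelium-specific ETS genes Ehf, Elf3 and Elf5, the Kruppel-like genes Klf4 and Klf5, and the zinc finger genes Ovol1 and Ovol2. They were chosen by name, and every RefSeq transcript line that maps to one of these symbols was taken, which gave 14 of 30794 lines and 10 of 23123 gene symbols. RNA came from medullary thymic epithelial cells (mTEC) of wild-type B6 mice, sorted from pooled thymi by surface MHC class II. The MHC-II-high sort (mTEChi) gave 1 library of paired 100-base reads, and the MHC-II-low sort (mTEClo) gave 1 library of single 50-base reads. The sort gate and the sequencing format therefore differ together and cannot be told apart, and since each sort has a single library, differences have no check from replicates and were not tested. Pooling of the animals leaves no measure of spread between mice.

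Grainyhead-like proteins bind DNA as dimers and keep epithelia sealed by activating genes of adherens junctions, tight junctions, desmosomes and the cornified envelope. The epithelium-specific ETS factors act in glandular, intestinal and stratified epithelia, Klf4 and Klf5 have opposed roles in leaving and staying in the cell cycle in gut and skin, and Ovol proteins are repressors that hold mesenchymal regulators down. mTEC, the cells that show peripheral self-antigens to developing T cells, pass from an MHC-II-low to an MHC-II-high stage, and some later take on features of keratinised or other peripheral epithelia. In skin, the same 4 families are known for the step from basal to suprabasal cells.

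Promoter windows are shown for 3 of the genes. Grhl1 and Elf5 each have a pair of transcript lines that begin at different starts, and Grhl3 and Elf5 had the largest ratios between the libraries. Each window runs from 250 bases before to 50 bases after an annotated start, read 5′ to 3′ along the gene, from RefSeq on build GRCm38.p6, a later build than the mm9 of the authors. Capitals mark the Kruppel-like core CACCC and the GC box GGGCGG on either strand, and the marked matches did not overlap in these windows.
Grhl1, chr12:24572037-24572336, plus strand: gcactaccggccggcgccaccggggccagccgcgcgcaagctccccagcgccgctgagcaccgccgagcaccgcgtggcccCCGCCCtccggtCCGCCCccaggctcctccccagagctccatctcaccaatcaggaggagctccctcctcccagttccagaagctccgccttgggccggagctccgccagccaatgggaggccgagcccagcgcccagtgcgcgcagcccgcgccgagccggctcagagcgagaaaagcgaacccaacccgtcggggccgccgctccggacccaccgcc
Grhl1, chr12:24580469-24580768, plus strand: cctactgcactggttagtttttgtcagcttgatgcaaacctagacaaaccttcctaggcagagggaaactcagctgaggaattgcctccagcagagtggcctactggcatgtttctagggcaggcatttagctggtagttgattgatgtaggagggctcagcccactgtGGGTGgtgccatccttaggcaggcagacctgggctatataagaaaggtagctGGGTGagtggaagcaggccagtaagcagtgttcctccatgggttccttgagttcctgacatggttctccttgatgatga
Grhl3, chr4:135573583-135573882, minus strand: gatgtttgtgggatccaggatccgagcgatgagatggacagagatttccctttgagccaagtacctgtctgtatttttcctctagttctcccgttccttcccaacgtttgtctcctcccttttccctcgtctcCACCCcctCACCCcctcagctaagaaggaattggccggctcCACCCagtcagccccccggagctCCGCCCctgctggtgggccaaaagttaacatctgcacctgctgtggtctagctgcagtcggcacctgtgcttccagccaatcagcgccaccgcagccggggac
Elf5, chr2:103411848-103412147, plus strand: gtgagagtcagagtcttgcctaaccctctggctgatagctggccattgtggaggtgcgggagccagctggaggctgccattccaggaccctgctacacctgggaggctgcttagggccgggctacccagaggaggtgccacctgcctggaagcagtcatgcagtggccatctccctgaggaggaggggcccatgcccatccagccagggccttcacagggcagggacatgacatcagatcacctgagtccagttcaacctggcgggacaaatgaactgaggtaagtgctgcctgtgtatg
Elf5, chr2:103423818-103424117, plus strand: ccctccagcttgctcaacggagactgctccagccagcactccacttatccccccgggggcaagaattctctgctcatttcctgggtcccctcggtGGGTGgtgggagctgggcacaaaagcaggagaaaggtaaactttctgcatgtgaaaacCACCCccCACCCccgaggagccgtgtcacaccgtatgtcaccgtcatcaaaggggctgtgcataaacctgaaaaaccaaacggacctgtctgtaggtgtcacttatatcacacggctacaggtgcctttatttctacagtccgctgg

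The upstream Grhl1 start lies in a window with 75.3% GC and 35 CG dinucleotides, and the downstream Grhl1 start in one with 51.3% GC and 0 CG dinucleotides. The median over all 32851 windows was 52.7% GC and 7 CG dinucleotides. The Elf5 windows held 3 and 10 CG dinucleotides in the order shown, and the Grhl3 window held 12. Windows were found for 6 of the 10 genes, 8 windows in all, and Grhl2, Ehf, Klf5 and Ovol1 had none in the table. CACCC was present in 5 of these 8 windows and in 57.5% of all windows. GGGCGG was present in 3 of the 8 and in 35.7% of all windows. The grainyhead motif AACCNGTT was in 0 of the 8 and in 2.09% of all windows, and the ETS motif AGGAAGT was in 0 of the 8 and in 9.35% of all windows. A match is a description of the letters only, and these shares give no reason to set the 8 windows apart from the rest.

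The values are RPKM, reads per kilobase of transcript scaled to the size of the library, as the authors deposited them, so levels can be compared between genes. The steps in the values imply about 114700000 reads for mTEChi and 20900000 for mTEClo, so mTEChi values carry the smaller counting error. A difference is log2((mTEChi + 1)/(mTEClo x 1.21 + 1)), where the factor 1.21 (0.27 on the log2 scale) brings the median ratio of 5167 well-expressed genes to 0, and 2-fold (1 on this scale) is the size called higher or lower. Markers of the labelled cell type were present: Epcam had 198 RPKM in mTEChi and 127 RPKM in mTEClo, and Aire had 122 RPKM in mTEChi and 15.9 RPKM in mTEClo. Of 9 medullary epithelium markers 5 were at least 2-fold higher in mTEChi, 2 were within 2-fold and 2 were lower. The lower ones were Krt5, with 448 RPKM in mTEChi and 770 RPKM in mTEClo, and Krt14, with 231 RPKM in mTEChi and 566 RPKM in mTEClo. Both libraries also held transcripts of genes used as markers of other cells. The summed level of 8 fibroblast markers was 37.9 RPKM in mTEChi and 698 RPKM in mTEClo, with 7 of the 8 at least 2-fold lower in mTEChi, and that of 8 endothelial markers was 15.8 RPKM in mTEChi and 145 RPKM in mTEClo, with 8 of 8 lower. Macrophage and dendritic cell markers, 7 of them, summed to 546 RPKM in mTEChi and 142 RPKM in mTEClo, with 6 of 7 at least 2-fold higher. Lyz2 alone had 493 RPKM in mTEChi and 133 RPKM in mTEClo. Thymocyte markers summed to 16.8 RPKM in mTEChi and 12.9 RPKM in mTEClo over 7 genes, and B cell markers to 23.4 RPKM in mTEChi and 11.3 RPKM in mTEClo over 4 genes. Of all these markers 0 were at 0 in mTEChi, and Cd79a and Ms4a1 were at 0 in mTEClo. In bulk RNA, fewer cells of a type and less RNA per cell cannot be told apart. Transcripts brought in by other cells and transcripts made by the mTEC themselves cannot be told apart here either. The part of any such other cells in the values below was not tested.

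All 10 genes were above 0 in both libraries and passed the filter of a mean of 0.5 RPKM. At least 2-fold higher in mTEChi were 4 of the 10, Grhl3, Elf5, Klf5 and Ovol1, beside 16.1% of all 15590 kept genes. At least 2-fold lower were 0 of the 10, beside 9.35% of all kept genes. The remaining 6 stayed within 2-fold, and 3 of those, Grhl2, Klf4 and Ovol2, lay below 0. The median log2 difference of the 10 genes was 0.75, and that of all kept genes was 0.03. Of all kept genes 829 were at 0 in mTEClo, where the filter and the pseudocount make each of them at least 2-fold higher, and among the 14761 kept genes above 0 in mTEClo 11.4% were at least 2-fold higher. With 10 genes chosen by name, these shares describe the set and say nothing about genes outside it. The families did not move as blocks: each held 1 gene at least 2-fold higher beside at least 1 gene that was within 2-fold.

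**Figure D1:**
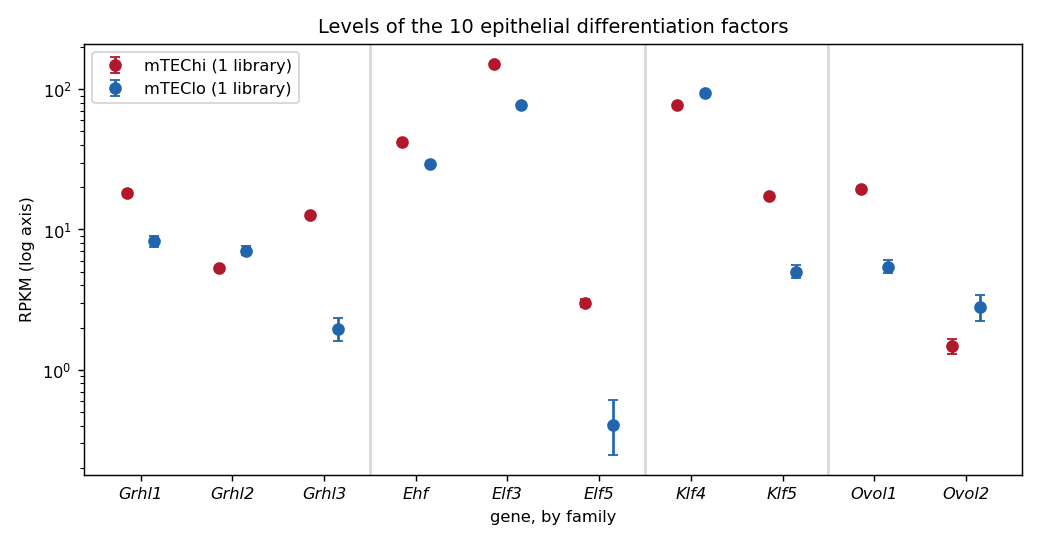
RPKM (log axis) of the 10 genes in the mTEChi library (red, left of each pair) and the mTEClo library (blue), 1 library each, with bars for the 95% counting interval from the implied reads. Elf3 and Klf4 are the highest in both libraries, at 151 and 77.3 RPKM in mTEChi, and the widest gaps between the libraries are those of Grhl3 and Elf5.

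Of the grainyhead-like genes, Grhl3 differed most between the libraries. Grhl3, needed for the epidermal barrier and for neural tube closure in mice, had 12.8 RPKM in mTEChi and 1.95 RPKM in mTEClo. Its log2 difference was 2.04. Without the pseudocount it was 5.44-fold higher in mTEChi, with a 95% counting interval from 4.52 to 6.63 that rests on 4091 implied reads in mTEChi and 113 in mTEClo. Of the 15590 kept genes 643 had a higher difference, and 95.9% had a lower one. Grhl1, an activator of desmosomal cadherin genes in mouse skin, had 18.2 RPKM in mTEChi and 8.21 RPKM in mTEClo, a log2 difference of 0.81. That difference passes 2-fold when mTEClo is left unscaled (1.06) or scaled to the mTEChi upper quartile (1.20), so its side of 2-fold depends on the scaling. Grhl2, an activator of the E-cadherin gene Cdh1 and of claudin genes, had 5.31 RPKM in mTEChi and 7.03 RPKM in mTEClo, a log2 difference of -0.59. Its counting interval without pseudocount, from -0.80 to -0.56 on the log2 scale, does not reach 0. Within mTEChi the order was Grhl1, Grhl3, Grhl2. Within mTEClo it was Grhl1, Grhl2, Grhl3.

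The ratio of family members within a library does not depend on the scaling between libraries. Grhl3 stood at 2.41 times the level of Grhl2 in mTEChi and at 0.277 times in mTEClo, an 8.71-fold shift in the ratio (counting interval 7.10 to 10.7). The share of Grhl3 in the summed RPKM of the 3 genes was 35.2% in mTEChi and 11.3% in mTEClo, whereas Grhl2 made up 14.6% in mTEChi and 40.9% in mTEClo. Grhl1 held close to the same share, 50.1% in mTEChi and 47.8% in mTEClo. The sum itself was 36.3 RPKM in mTEChi and 17.2 RPKM in mTEClo.

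Of the more distant grainyhead relatives, Tfcp2l1, a transcription factor of kidney collecting duct and of naive pluripotent cells in mice, had 10.4 RPKM in mTEChi and 3.24 RPKM in mTEClo, a log2 difference of 1.21. Ubp1 differed by -0.01 and Tfcp2 by -0.29. In this superfamily of 6 measured genes Grhl3 was at place 2 by level in mTEChi and at place 6 in mTEClo.

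Among the epithelium-specific ETS genes, Elf3 and Ehf were abundant and within 2-fold, and Elf5 was scarce and higher in mTEChi. Elf3, an epithelial ETS factor known for its role in intestinal differentiation, had 151 RPKM in mTEChi and 77.3 RPKM in mTEClo, a log2 difference of 0.68. In mTEChi 98.6% of all gene symbols had a lower level than Elf3, and in mTEClo 97.6%. Its difference reached 1.11 when mTEClo was scaled to the mTEChi upper quartile and was 0.95 without scaling. Ehf, a close relative expressed in many ductal and stratified epithelia, had 42.0 RPKM in mTEChi and 29.1 RPKM in mTEClo, a log2 difference of 0.25. Elf5, which directs alveolar fate in the mouse mammary gland and the trophoblast lineage, had 2.98 RPKM in mTEChi and 0.406 RPKM in mTEClo. Its log2 difference was 1.42. Without the pseudocount Elf5 was 6.08-fold higher in mTEChi, and the counting interval from 4.03 to 10.1 is wide because mTEClo implied 21 reads, against 866 in mTEChi. A pseudocount of 5 RPKM brought the difference to 0.54, below 2-fold. Ehf and Elf5 are neighbours on chromosome 2 with 0 annotated protein-coding genes between them, yet Elf5 stood at 0.0710 times the level of Ehf in mTEChi and at 0.0139 times in mTEClo, a 5.10-fold shift (3.30 to 7.87). The Elf3 to Ehf ratio was 3.59 in mTEChi and 2.65 in mTEClo, a 1.35-fold shift (1.28 to 1.43).

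Among 26 measured ETS genes Elf3 was the highest in mTEChi and at place 2 in mTEClo, where Spib was above it. Spib, an ETS factor of B cells, plasmacytoid dendritic cells, microfold cells and mTEC, had 130 RPKM in mTEChi and 92.7 RPKM in mTEClo. Ehf was at place 4 in both libraries, and Elf5 at place 17 in mTEChi and 23 in mTEClo. Elf1 and Elf4, relatives of Elf3 that are broadly expressed in blood cells, differed by 0.03 and 0.62 on the log2 scale.

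**Figure D2:**
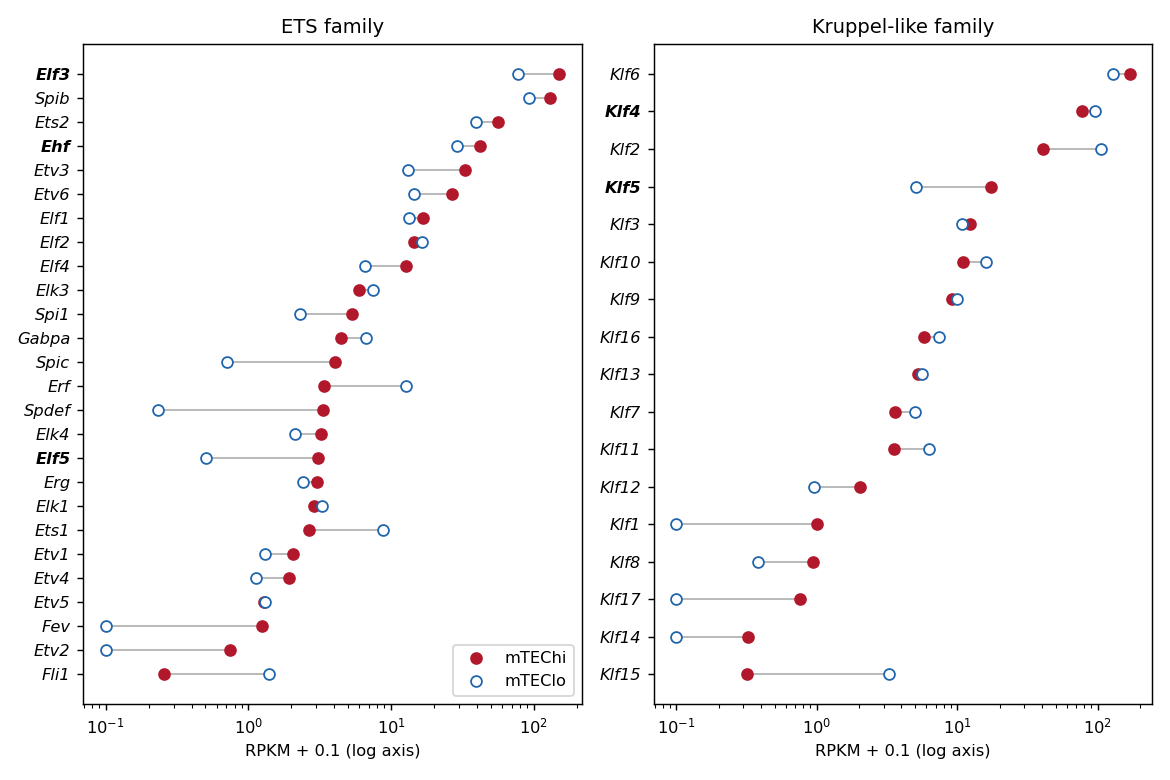
RPKM + 0.1 (log axis) of all measured ETS and Kruppel-like genes in mTEChi (red, filled) and mTEClo (blue, open), ordered by the mTEChi level, with the members described here in bold. Elf3 tops the ETS panel in mTEChi with Ehf at place 4, and Klf5 is at place 4 of 17 Kruppel-like genes in mTEChi and at place 10 in mTEClo.

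The Kruppel-like pair differed in direction. Klf5, a factor of proliferating gut crypt and basal epithelial cells, had 17.3 RPKM in mTEChi and 4.99 RPKM in mTEClo, a log2 difference of 1.38. Without the pseudocount it was 2.86-fold higher in mTEChi (2.57 to 3.20). Klf4, needed for the barrier of mouse skin and for goblet cells of the colon, had 77.3 RPKM in mTEChi and 94.5 RPKM in mTEClo, a log2 difference of -0.56. Klf4 was the highest of the 10 genes in mTEClo and the second highest, after Elf3, in mTEChi. The Klf5 to Klf4 ratio was 0.224 in mTEChi and 0.0529 in mTEClo, a 4.23-fold shift (3.79 to 4.73). Klf4 is also expressed in endothelium and fibroblasts. The fibroblast markers summed to 37.9 RPKM in mTEChi and 698 RPKM in mTEClo, and the endothelial markers to 15.8 and 145 RPKM. The fibroblast marker Pdgfrb stayed within 2-fold (-0.21). The part of such cells in the Klf4 level of mTEClo was not tested.

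Of 12 other Kruppel-like genes that passed the filter, 0 were at least 2-fold higher in mTEChi, beside 16.1% of all kept genes. Lower were 2 of the 12, beside 9.35%, and the median of the 12 was -0.46. The count of lower genes was 4 with the same Epcam level and 1 with a pseudocount of 5 RPKM. The count of higher genes was 1 with a pseudocount of 0.1 RPKM. Klf2, a flow-responsive factor of endothelium that is also expressed in T cells, had 40.4 RPKM in mTEChi and 105 RPKM in mTEClo, a log2 difference of -1.64. Klf15, a metabolic regulator of liver, muscle and fat, had 0.216 RPKM in mTEChi and 3.17 RPKM in mTEClo (-1.99). Klf6, a widely expressed member, was the highest of the family in both libraries, with 168 RPKM in mTEChi and 128 RPKM in mTEClo (0.12), and Klf3 differed by -0.08. Klf1, Klf14 and Klf17 did not pass the filter and were at 0 in mTEClo. Klf5 had the highest difference of the 14 Kruppel-like genes that passed the filter.

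The Ovol pair also parted. Ovol1, a repressor that slows proliferation of suprabasal keratinocytes in mice, had 19.4 RPKM in mTEChi and 5.45 RPKM in mTEClo, a log2 difference of 1.43. Without the pseudocount it was 2.94-fold higher in mTEChi (2.64 to 3.29). Ovol2, which represses Zeb1 and so holds cells in an epithelial state, had 1.47 RPKM in mTEChi and 2.80 RPKM in mTEClo, a log2 difference of -0.83. Because both values are low, the pseudocount shrinks this difference: without it the log2 ratio was -1.20, with a counting interval from -1.55 to -0.83 that rests on 261 implied reads in mTEChi and 90 in mTEClo. Ovol1 stood at 13.2 times the level of Ovol2 in mTEChi and at 1.94 times in mTEClo, a 6.77-fold shift (5.21 to 8.81). Ovol1 made up 92.9% of the summed Ovol RPKM in mTEChi and 66.0% in mTEClo. Ovol3 was not analysed here.

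**Figure D3:**
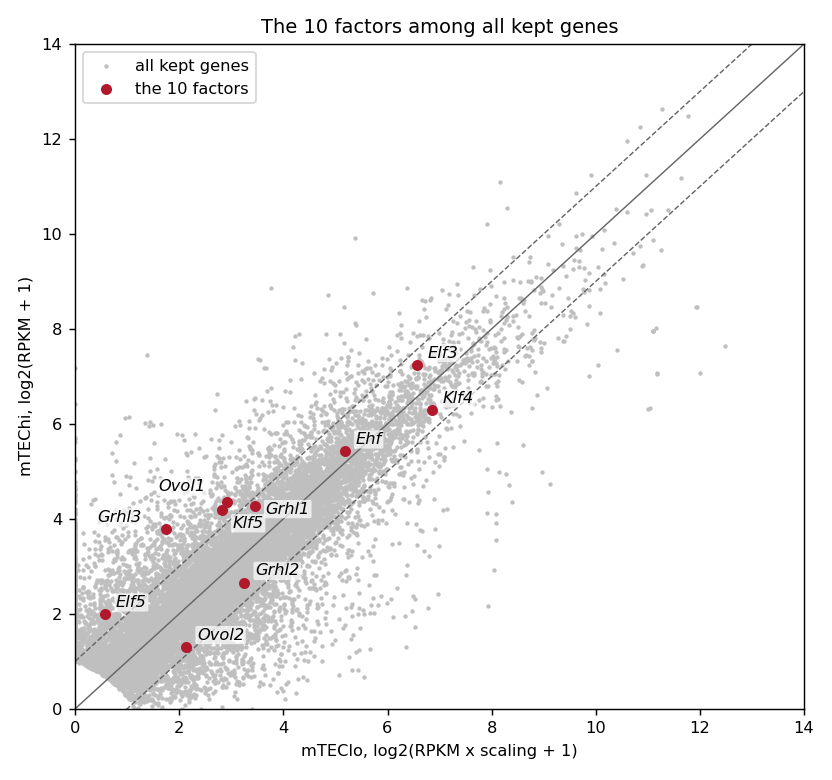
Each point is a gene kept by the filter, with log2(RPKM + 1) in mTEChi on the vertical axis and log2(RPKM x scaling + 1) in mTEClo on the horizontal axis; the solid line marks equal values and the dashed lines 2-fold. Grhl3, Elf5, Klf5 and Ovol1 lie above the upper dashed line, and the other 6 genes (red) lie between the lines.

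In order of level, the 10 genes ran Elf3, Klf4, Ehf, Ovol1, Grhl1, Klf5, Grhl3, Grhl2, Elf5 and Ovol2 in mTEChi. On the line with the highest mean of each gene, all 9 neighbouring pairs in that order differed beyond counting error. Ovol1 and Grhl1 differed by a ratio of only 1.07 (1.03 to 1.10) and Grhl1 and Klf5 by 1.05 (1.02 to 1.09). The other Grhl1 line had 17.5 RPKM in mTEChi, beside 17.3 RPKM for Klf5, and no interval was computed for that pair. In mTEClo the order was Klf4, Elf3, Ehf, Grhl1, Grhl2, Ovol1, Klf5, Ovol2, Grhl3 and Elf5. Ovol1 and Klf5 did not differ beyond counting error there, with a ratio of 1.09 (0.938 to 1.27). In mTEClo the other Grhl1 line had 7.37 RPKM, beside 7.03 RPKM for Grhl2, also without an interval. Counting intervals cover counting error only, and the spread between libraries of 1 kind is not known. They treat implied reads as independent, so they are too narrow for mTEChi if the 2 reads of a pair were counted separately. The top 3 genes were Elf3, Klf4 and Ehf in both libraries, with Elf3 and Klf4 in exchanged places.

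**Figure D4:**
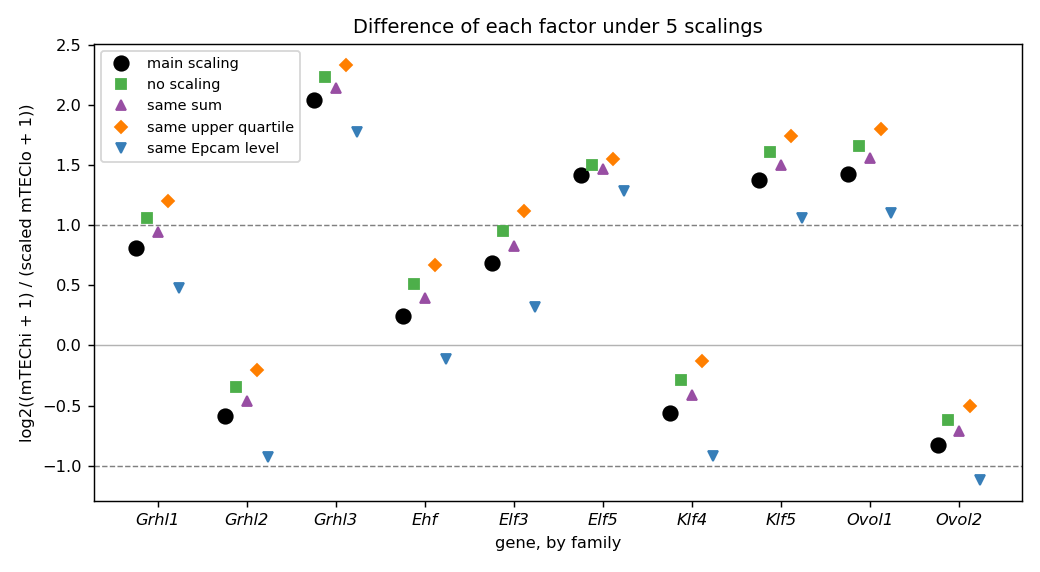
Log2 difference of each gene under 5 scalings of mTEClo: the median of well-expressed genes (black), none (green), the same sum (purple), the same upper quartile (orange) and the same Epcam level (blue). Dashed lines mark 2-fold: Grhl3, Elf5, Klf5 and Ovol1 stay above the upper line under all 5 scalings, Grhl2, Klf4 and Ovol2 stay below 0, and Ehf lies below 0 only with the same Epcam level (-0.11).

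Scaling moves all 10 genes together, and Epcam, a pan-epithelial adhesion gene, gives one further point of comparison that was chosen after seeing the data. With Epcam set to the same level in both libraries, which lowers the log2 ratios by 0.37, Grhl3, Elf5, Klf5 and Ovol1 were still at least 2-fold higher in mTEChi, and Ovol2 was more than 2-fold lower (-1.12). Grhl1 then differed by 0.48 and Elf3 by 0.32. Of all kept genes 12.7% were then at least 2-fold higher and 16.6% lower.

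Of the 10 genes, 6 had 1 transcript line and 4 had 2. For Elf3 the lines NM_007921 and NM_001163131 had 151 and 147 RPKM in mTEChi. In mTEClo they had 77.3 and 74.95 RPKM. The Elf3 lines share 1901 exonic bases in the GENCODE models, and the longer one has 194 of its own. The ratio of the longer to the shorter line was 0.973 in mTEChi and 0.970 in mTEClo. For Grhl1 the ratio of the lines differed more between the libraries than for Elf3. NM_001161406, which starts upstream at the CG-rich window shown above, had 17.5 RPKM in mTEChi and 7.37 RPKM in mTEClo. NM_145890, which starts downstream, had 18.2 RPKM in mTEChi and 8.21 RPKM in mTEClo, so the ratio of the upstream to the downstream line was 0.964 in mTEChi and 0.897 in mTEClo. The Grhl1 lines share 3035 exonic bases, and the upstream line has 434 and the downstream line 35 of their own. No interval was computed for these ratios, because the lines share most of their reads and the transcript lengths behind the deposited RPKM are not known here. The read length and pairing of the libraries differ in the same direction as the sort, how reads shared by lines were assigned is not stated, and the part of both in this gap was not tested.

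For Elf5 the line of the upstream start, NM_001145813, and that of the downstream start, NM_010125, had 2.98 and 2.97 RPKM in mTEChi, and 0.406 and 0.389 RPKM in mTEClo. Their differences between the libraries were 1.42 and 1.43 on the log2 scale, so the result does not hang on the choice of line. For Ovol2 the line NM_152947 had 1.47 RPKM in mTEChi and 2.80 RPKM in mTEClo, and NM_026924 had 1.33 RPKM in mTEChi and 2.31 RPKM in mTEClo. The log2 differences of the Ovol2 lines were -0.83 and -0.70. The ratio of the longer to the shorter Ovol2 line was 1.11 in mTEChi and 1.21 in mTEClo, also without an interval. In mTEClo these lines implied only 90 and 74 reads. Lines of a gene share most of their exons and are not independent measurements.

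Genes that are reported as targets of grainyhead factors in other epithelia lay above 0 as a list. Of 13 measured, 3 were at least 2-fold higher in mTEChi, beside 16.1% of all kept genes, and 0 were lower, beside 9.35%, with a median log2 difference of 0.61 beside 0.03 for all kept genes. The 3 were Tgm5, a transglutaminase of the cornified envelope, with 15.6 RPKM in mTEChi and 2.14 RPKM in mTEClo (2.21), the epithelial splicing regulator Esrp1 (1.17), and the tight junction gene Cldn4, with 421 RPKM in mTEChi and 168 RPKM in mTEClo (1.05). Cdh1, the E-cadherin gene, had 96.5 RPKM in mTEChi and 52.9 RPKM in mTEClo (0.59), Esrp2 differed by 0.52, and Tgm1, a reported Grhl3 target in skin, by 0.47. The count of 3 was 6 without scaling, 8 with the same upper quartile and 1 with the same Epcam level, so it depends on the scaling. Epcam is itself in this list (0.37), and Ppl (0.11) and Cgn (0.30) differed by less than the 0.37 by which the same Epcam level lowers the log2 ratios. Fibroblast and endothelial markers summed to more in mTEClo, at 698 and 145 RPKM, and their part in these differences was not tested.

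Genes of the mesenchymal state, which Ovol and grainyhead factors are reported to oppose, lay below 0. Of 8 that passed the filter, 5 were at least 2-fold lower in mTEChi, beside 9.35% of all kept genes, and 0 were higher, beside 16.1%. The median of the 8 was -1.42. Zeb1, the reported target of Ovol2, had 0.585 RPKM in mTEChi and 3.14 RPKM in mTEClo (-1.60), and its relative Zeb2 differed by -0.94. Of the factors themselves, Ovol2 (-0.83) and Grhl2 (-0.59) also lay below 0, and Ovol1 (1.43), Grhl1 (0.81) and Grhl3 (2.04) above it. Twist1 had 0.219 RPKM in mTEChi and 4.05 RPKM in mTEClo (-2.27), Snai2 had 1.81 RPKM in mTEChi and 7.81 RPKM in mTEClo (-1.89), and Snai1 differed by -1.68. The count of 5 was 2 with a pseudocount of 5 RPKM, 1 with a filter of 5 RPKM and 7 with the same Epcam level. These genes are also expressed by fibroblasts and endothelium, whose summed markers were lower in mTEChi as well (37.9 RPKM in mTEChi and 698 RPKM in mTEClo for fibroblasts), and their part in this difference was not tested.

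Basal and suprabasal keratinocyte genes differed from each other. Of 9 basal genes 4 were at least 2-fold lower in mTEChi, beside 9.35% of all kept genes, and 1 was higher, beside 16.1%. The median of the 9 was -0.84. The lower ones were Lamb3 (-1.91), Krt14 (-1.57), Itgb4 (-1.22) and Krt5 (-1.05), and the higher one was Col17a1, a hemidesmosome collagen gene, with 9.88 RPKM in mTEChi and 2.20 RPKM in mTEClo (1.57). The lower count of 4 was 2 with mTEClo unscaled or scaled to the mTEChi upper quartile. With a pseudocount of 5 RPKM Col17a1 was within 2-fold. Trp63, the master regulator of basal cells, differed by -0.58 on its highest line. The median of 12 suprabasal and cornified genes was 0.50. Of these, 4 were at least 2-fold higher, beside 16.1% of all kept genes, and 0 were lower, beside 9.35%. They were Krt1 (4.35), Krt10 (3.64), Tgm3 (1.95) and, named after its value was seen, Sprr1b (1.46), while Ivl, the involucrin gene, had 19.7 RPKM in mTEChi and 11.8 RPKM in mTEClo (0.44). The other 8 genes of this list were within 2-fold.

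Milk protein genes, reported targets of Elf5 in the mammary gland, are given one by one, since 3 of the 5 that passed the filter were at 0 in mTEClo and passed through mTEChi alone. Csn2 had 399.8 RPKM in mTEChi and 93.2 RPKM in mTEClo (1.82), and Csn3 had 2.99 RPKM in mTEChi and 0.659 RPKM in mTEClo (1.15). Csn1s2a, Csn1s1 and Wap were at 8.63, 2.53 and 5.89 RPKM in mTEChi and at 0 in mTEClo, so the filter and the pseudocount fix their calls. Against the bound of 3 reads that a value of 0 allows in mTEClo, Csn1s2a was at least 45.7-fold higher, Csn1s1 at least 20.6-fold and Wap at least 18.7-fold. Lalba, at 0.380 RPKM in mTEChi and 0 in mTEClo, did not pass the filter. Only Csn2 passed 2-fold with a filter of 5 RPKM.

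**Figure D5:**
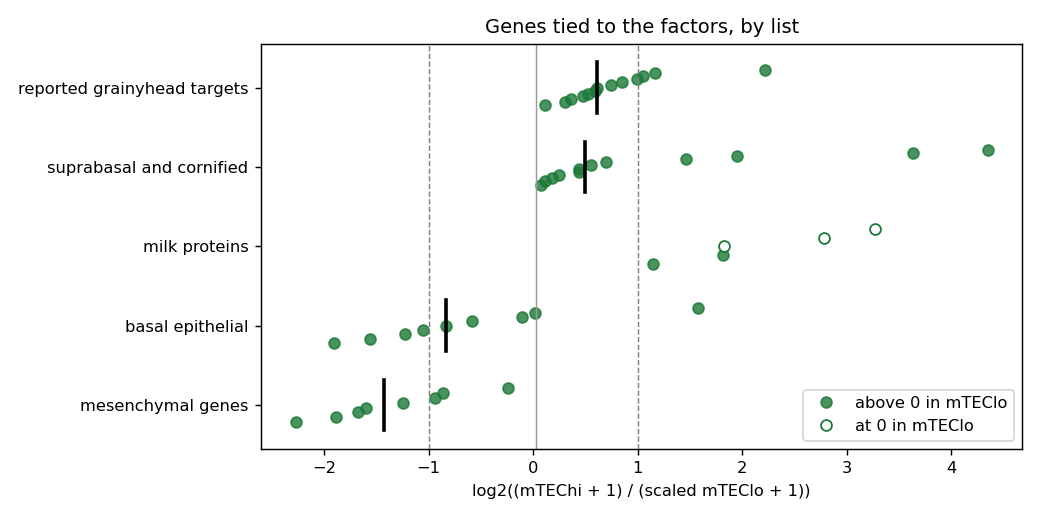
Log2 difference between mTEChi and scaled mTEClo of each kept gene in 5 lists tied to the factors (points), with the list median (black bar, 4 lists), 2-fold (dashed lines) and the median of all kept genes (grey line). Open points are genes at 0 in mTEClo, whose place the filter and the pseudocount fix, and the milk protein list therefore has no median bar. The medians are 0.61 for reported grainyhead targets, 0.50 for suprabasal genes, -0.84 for basal and -1.42 for mesenchymal genes.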

How the data were processed

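Poly(A)-selected RNA of 1 mTEChi and 1 mTEClo library was made with a non-directional kit, per the labels' protocols, so overlapping genes may share reads. The authors deposited RPKM for each RefSeq transcript. Tools listed in the submitters' processing notes, without roles, are bedtools, CASAVA and Bowtie 1.0.0, with build mm9.

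Of 30794 lines, 30216 were named through RefSeq, 180 through GENCODE and 398 not at all. A gene's value is its line with the highest mean RPKM. mTEClo was scaled by 1.21 over 5167 genes whose mean was at least 10 RPKM. The filter was a mean of at least 0.5 RPKM, 1 RPKM was added, and 2-fold was the call. Reads were recovered from RPKM and GENCODE transcript length: of lines with 1 to 10 reads, 76.7% of 1638 in mTEChi and 65.3% of 1061 in mTEClo lay within 0.1 of a whole read. Intervals (95%) are exact Poisson for levels, Clopper-Pearson for ratios of 2 counts, and a normal approximation on the log scale for shifts of ratios. All cover counting error only and treat implied reads as independent. The steps were checked on simulated data.

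The members and lists were chosen with earlier results of these data known. All members are named; of longer lists, up to 3 of the largest differences each way past 2-fold and genes listed beforehand by name. With 2 libraries no gene could be named for a like pattern over samples. Software was matplotlib 3.10.9, scipy 1.17.1, pandas 2.3.3 and numpy 2.4.6 under Python 3.11.15.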

Additional observations from a re-analysis of the deposited data

How the results depend on the processing

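Alternatives were pseudocounts of 0.1 and 5 RPKM, no scaling, the same sum or upper quartile, no filter or a mean of 5 RPKM, 3 other ways to combine lines, and the same Epcam level, which was chosen after seeing the data. Of the 10 genes, the number at least 2-fold higher in mTEChi was 4 and ranged from 3 (pseudocount of 5 RPKM, without Elf5, or a filter of 5 RPKM, which drops Elf5 and Ovol2) to 6 (same upper quartile, with Grhl1 and Elf3 added). The number at least 2-fold lower was 0, and 1 (Ovol2) with a pseudocount of 0.1 RPKM and with the same Epcam level. Across settings Grhl3 lay between 1.27 and 2.39, Ovol1 between 1.07 and 1.80, Klf5 between 1.01 and 1.74, Elf5 between 0.54 and 2.38, Grhl2 between -0.92 and -0.21, Klf4 between -0.92 and -0.13 and Ovol2 between -1.15 and -0.37.

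Of the related lists 18 genes were higher and 14 lower; these were 9 and 9 with a pseudocount of 5 RPKM, and 11 and 8 with a mean of 5 RPKM or more, where fewer genes remain. They were 24 and 10 with the same upper quartile, and 13 and 20 with the same Epcam level. That level turns the balance, as it also does over all kept genes. These are counts over the lists together. No share of the kept list genes was computed for them, so they are not set beside the shares of all kept genes. Of the 18, 4 were at 0 in mTEClo (Fev, Wap, Csn1s1 and Csn1s2a). Over all kept genes 2508 were higher and 1457 lower, and 877 and 648 with a pseudocount of 5 RPKM, 1010 and 822 with a mean of 5 RPKM or more. With the same upper quartile 3430 were higher and 838 lower, and with the same Epcam level 1973 were higher and 2583 lower. The share of higher genes among those past 2-fold was 63.3%, and 74.9% without scaling, 80.4% with the same upper quartile and 43.3% with the same Epcam level.

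No paired analysis was possible because each group has 1 library, and for the same reason no library could be left out. Depth limits Elf5 most, with 21 implied reads in mTEClo.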

Other observations

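Of 22 ETS genes outside the epithelium-specific trio that passed the filter, 4 were at least 2-fold higher in mTEChi, beside 16.1% of all kept genes, and 3 were lower, beside 9.35%. These shares are near those of all kept genes. Spdef, an ETS factor of goblet and other secretory cells, had 3.23 RPKM in mTEChi and 0.131 RPKM in mTEClo (1.87), on 712 implied reads in mTEChi and 5 in mTEClo. Spic, a factor of iron-recycling macrophages, had 3.97 RPKM in mTEChi and 0.605 RPKM in mTEClo (1.52), and the myeloid factor Spi1 had 5.24 RPKM in mTEChi and 2.19 RPKM in mTEClo (0.77). Of the macrophage and dendritic cell markers, 6 of 7 were at least 2-fold higher in mTEChi, and Itgax was not (-0.01). Their sum was 546 RPKM in mTEChi and 142 RPKM in mTEClo, most of it Lyz2 (493 and 133 RPKM). The part of such cells was not tested. Fev, known from serotonergic neurons, was at 1.15 RPKM in mTEChi and at 0 in mTEClo, at least 9.85-fold higher against the bound of 3 reads. The fourth higher gene, named after its value was seen, was Etv3, with 33.0 RPKM in mTEChi and 13.1 RPKM in mTEClo (1.02). With a pseudocount of 5 RPKM 0 of the 4 were at least 2-fold higher.

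On the lower side, Erf, an ETS repressor, had 3.29 RPKM in mTEChi and 12.6 RPKM in mTEClo (-1.92), and Ets1, a factor of lymphocytes and endothelium, had 2.56 RPKM in mTEChi and 8.69 RPKM in mTEClo (-1.69). Fli1, expressed in endothelial and blood cells, had 0.158 RPKM in mTEChi and 1.30 RPKM in mTEClo (-1.15). Endothelial markers summed to 15.8 RPKM in mTEChi and 145 RPKM in mTEClo, and their part in these 3 genes was not tested. Erg, a further gene of this ETS list, was not lower, with 2.94 RPKM in mTEChi and 2.31 RPKM in mTEClo (0.05).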
